A study of Mus musculus with 375 samples.

Results

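Ciita and the 7 genes of the protein complex it docks on, Rfx5, Rfxap, Rfxank, Nfya, Nfyb, Nfyc and Creb1, were followed in single intestinal stem cells. These 8 genes were chosen by name, as the class II transactivator and the enhanceosome that positions it, out of 23420 genes in the deposited table. The cells were taken from mouse small intestine after a high-fat diet (HFD) or a control diet, and had been isolated by flow cytometry as Lgr5-positive, Lgr5 being the marker of crypt base stem cells. Each was sequenced by Smart-seq2, which makes full-length cDNA from 1 cell per well. The titles divide the cells into HFD 1, HFD 2, control 1 and control 2, with 93, 94, 94 and 94 cells. After cells with fewer than 2000 genes above 0 TPM (transcripts per 1000000) were left out, 91, 92, 93 and 91 remained, or 367 of 375. No strain, age, diet composition or feeding time is stated in the sources used here. Whether the sets came from separate mice is not stated either, so every p-value below rests on differences between these sets, which may be technical. Those from limma also borrow the spread of other genes.

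MHC class II molecules present peptides to CD4 T cells, and in epithelial cells, as in antigen-presenting cells, their genes need Ciita, a coactivator that binds no DNA itself. The RFX trimer binds the X box of class II promoters, CREB binds an element beside it and the NF-Y trimer binds the Y box, and Ciita is recruited to the surface that these proteins form together. The DNA-binding proteins are found in most cell types, whereas Ciita is induced, chiefly by interferon gamma, and is regarded as the step that switches the class II genes on.

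Letters of the boxes that these proteins bind were looked for in the promoters of the class II genes whose levels follow. Windows of 300 bases around the start, 250 before and 50 after, were taken from RefSeq on GRCm38.p6, and 4 of the 6 class II genes examined in the cells (H2-Aa, H2-Eb1, H2-DMa and H2-DMb1) had one, as did 6 of the 8 genes followed here. The stretches below read 5′ to 3′ in the direction of the gene, and are shown because they hold the RFX or CREB element together with the NF-Y element. Capitals mark the X box core (ACNGATG), the full CREB site (TGACGTCA) and the Y box, which is CCAAT on the opposite strand and so reads ATTGG here.
H2-Aa, chr17:34287857-34287912, minus strand: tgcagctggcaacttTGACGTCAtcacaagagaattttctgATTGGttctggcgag
H2-Eb1, chr17:34305764-34305822, plus strand: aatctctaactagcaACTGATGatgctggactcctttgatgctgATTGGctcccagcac
H2-DMb1, chr17:34153085-34153144, plus strand: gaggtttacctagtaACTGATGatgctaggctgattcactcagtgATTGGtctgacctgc
H2-DMa had 2 windows, 1 with none of these elements and 1 with a Y box only. In the stretches shown, 18, 22 and 23 bases separate the left element from the Y box. On either strand, the X box core occurred in 9.85% of 32851 promoter windows, CCAAT in 37.4%, TGACG in 20.8% and TGACGTCA, which contains TGACG, in 1.79%; the X box core can share its last letters with a TGACG that follows. An X box core in the sense direction followed by ATTGG after 15 to 40 bases occurred in 37 windows, or 0.113%. Besides H2-Eb1 and H2-DMb1, these included the class II genes H2-Eb2 and H2-DMb2 and the class I genes H2-D1, H2-M3, H2-Q4, H2-Q6 and H2-Q7. Such matches describe letters only and do not show binding.

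Medians of 6857, 6348.5, 6895 and 6130 genes were detected per cell in HFD 1, HFD 2, control 1 and control 2. Rn45s, a precursor of ribosomal RNA, made up 26.9%, 18.6%, 39.1% and 24.6% of TPM, and the median log2 difference of all tested genes between the diets was 0.13 with TPM as deposited, −0.048 with Rn45s left out and 0.0023 after median-ratio scaling. The mean log2(TPM + 1) of 8 crypt base stem cell markers was 6.55, 6.37, 6.65 and 6.35. At least 1 of these markers reached 10 TPM in 367 cells, as did an enterocyte marker in 365, a goblet marker in 171 and a Paneth marker in 122. The summed TPM of 4 leukocyte markers was 0.452, 0.811, 0.595 and 0.331, with 1 of the 4 at 0 in every cell. The mean log2 score of enterocyte markers was higher in the HFD sets (3.33 and 3.33, against 2.28 and 2.61 in the control sets). The score of proliferation markers was higher as well (5.02 and 4.59, against 4.23 and 4.12). By set mean TPM, the proliferation markers Pcna, Mcm5 and Mcm6 were higher in both HFD sets, while Mki67, Top2a and Ccnb1 overlapped between the diets. The summed TPM of 6 Paneth markers was 670 and 189 in the HFD sets, against 58.04 and 28.5 in the control sets, and that of 7 goblet markers was 531 and 469, against 396 and 71.5. The part of enterocyte, goblet and proliferation markers in the differences between diets below was not tested; with Paneth-marker cells removed (3 or more of these genes reaching 10 TPM) the Ciita difference was −0.94 on the log2 scale.

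Ciita was lower in both HFD sets than in both control sets, whereas the 7 enhanceosome genes gave no common direction. Of the 8 genes, 0 passed the test of set means between diets, limma (trend over the mean level) on log2 of the set mean TPM plus 1, with Benjamini-Hochberg adjustment over 11667 genes. Over all genes 59 passed, or 0.506%, so the count of members did not exceed the background. Unadjusted, 3 of the 8 (Ciita, Rfxap and Nfyb) had p below 0.05, against 1294 of all genes (11.1%). The set means of 2 of the 8 did not overlap between the diets, Ciita lower and Nfyb higher in HFD, and 41.8% of all tested genes showed no overlap in either direction.

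**Figure D1:**
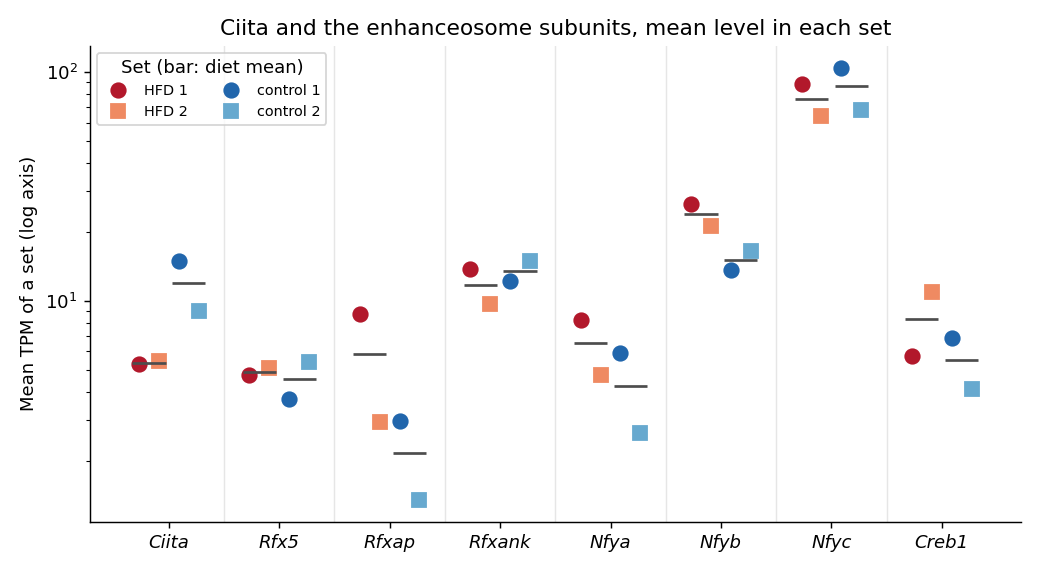
Mean TPM (log axis) of each of the 8 genes in HFD 1, HFD 2, control 1 and control 2; each point is 1 set and each bar the mean of a diet. Ciita lies at 5.28 and 5.44 TPM in the HFD sets, below 14.9 and 8.97 TPM in the control sets, and Nfyb shows the opposite order, while the sets of the other 6 genes overlap.

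Ciita (chr16:10480059-10528418, plus strand, GRCm38) averaged 5.28 and 5.44 TPM in HFD 1 and HFD 2, against 14.9 and 8.97 TPM in control 1 and control 2. The HFD sets lay close together, the control sets lay apart, and both HFD sets were the lower. The diet means were 5.36 ± 0.113 TPM in HFD and 11.96 ± 4.21 TPM in control (SD, n = 2 sets each). On the log2(TPM + 1) scale, where a change of a low gene looks smaller than it is, the difference was −0.99 (SE 0.36, limma p = 0.0107, Benjamini-Hochberg adjusted p = 0.2996). Without control 1, the set with the highest level, it was −0.65, and without control 2 it was −1.33; the gene did not pass in any of 15 alternative settings.

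The lower mean of Ciita went with fewer cells holding it, not with a lower level in those cells. At 1 TPM or more it was found in 12 of 91 cells of HFD 1 (13.2%, exact Clopper-Pearson 95% interval 7.004 to 21.9%) and in 19 of 92 cells of HFD 2 (20.7%, 12.9 to 30.4%). In control 1 it was found in 45 of 93 cells (48.4%, 37.9 to 58.99%), and in control 2 in 29 of 91 (31.9%, 22.5 to 42.5%). Those intervals cover counting error only, and TPM carries no depth, so a cell without Ciita here may still contain the transcript. The mean share was 16.9 ± 5.28% in HFD and 40.1 ± 11.7% in control (SD, n = 2 sets each), a difference of −23.2 percentage points against a pooled SD between sets of 9.06. The exact permutation test of the 4 sets gave p = 0.333, two-sided, the smallest value that 2 sets against 2 can give.

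Among cells with Ciita, the median was 20.6 TPM in HFD 1 and 18.6 TPM in HFD 2, against 12.7 TPM in control 1 and 17.7 TPM in control 2. Their mean log2 TPM differed between the diets by 0.066, within the pooled SD of 0.19. A few cells weighed heavily in the HFD means: the highest cell supplied 37.7% and 27.7% of the Ciita total in the HFD sets, against 11.0% and 12.1% in the control sets. Counted at 5 TPM or more, or in cells of the middle range of gene numbers, the difference in share was −16.7 and −22.7 percentage points.

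**Figure D2:**
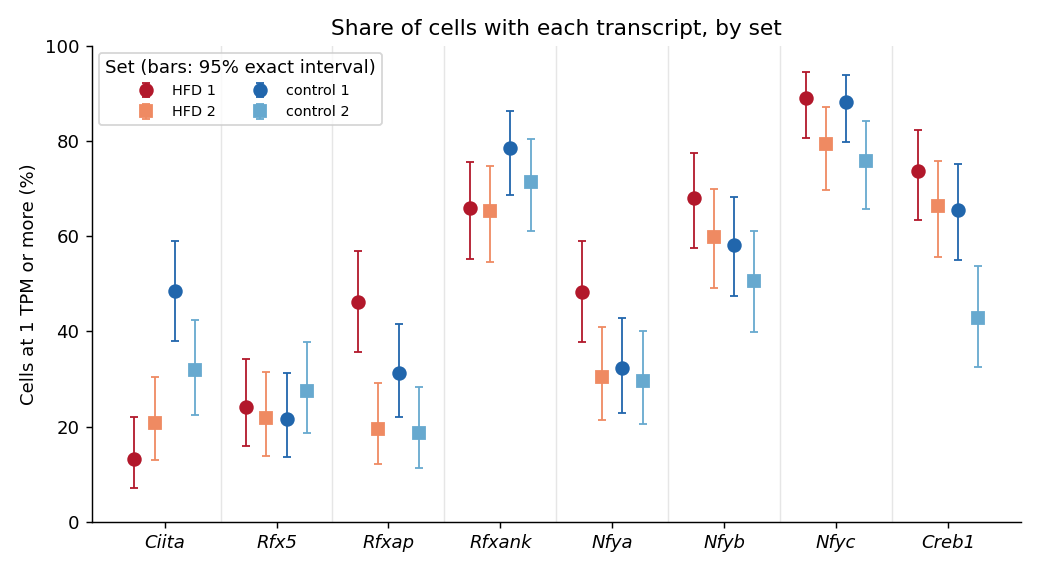
Share of cells at 1 TPM or more for each gene in HFD 1, HFD 2, control 1 and control 2; bars are exact 95% intervals, which cover counting error only. Ciita was found in 13.2% and 20.7% of HFD cells, against 48.4% and 31.9% of control cells, whereas Nfyc was found in at least 75.8% of the cells of every set.

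Tested as shares, with limma on the arcsine square root and Benjamini-Hochberg adjustment, 0 of the 8 members and 0 of 12073 genes (0%) passed. At an unadjusted limma p below 0.05 there were 433 genes (3.59%), among them Ciita (p = 0.0264) and no other member. Shares did not overlap between the diets for 4 of the 8, Ciita and Rfxank lower and Nfyb and Creb1 higher in HFD, where 26.4% of all genes showed no overlap.

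An exon of Ciita overlaps Dexi on the opposite strand, and Smart-seq2 does not mark strand, so reads from the shared bases could be given to either gene. Dexi averaged 4.56 and 3.33 TPM in HFD 1 and HFD 2, against 4.14 and 5.13 TPM in control 1 and control 2, which overlap (log2 −0.19, SE 0.40, limma adjusted p = 0.899). Within sets, Spearman's rho between Dexi and Ciita over cells was −0.0469, 0.191, 0.336 and 0.110 in HFD 1, HFD 2, control 1 and control 2.

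Of the RFX trimer, Rfx5 and Rfxap were found in a minority of cells of every set and Rfxank in most cells. Rfx5, the subunit that carries the DNA-binding domain shared by the RFX family, averaged 4.73 and 5.06 TPM in HFD 1 and HFD 2, against 3.71 and 5.42 TPM in control 1 and control 2. The HFD values fell between those of the control sets (log2 0.10, SE 0.39, limma adjusted p = 0.953). It was found in 24.2% and 21.7% of HFD cells, against 21.5% and 27.5% of control cells. Exons of Rfx5 overlap B230398E01Rik on the opposite strand, so reads from the shared bases cannot be told apart.

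Rfxap, the RFX-associated subunit, averaged 8.76 and 2.95 TPM in HFD 1 and HFD 2, against 2.98 and 1.34 TPM in control 1 and control 2. HFD 1 stood above the other 3 sets, and HFD 2 was level with control 1. The log2 difference was 1.02 (SE 0.47, limma p = 0.0399, adjusted p = 0.430). Its share of cells was likewise highest in HFD 1, at 46.2%, with 19.6% in HFD 2, against 31.2% and 18.7% in the control sets.

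Rfxank, the ankyrin-repeat subunit that joins the trimer together, averaged 13.8 and 9.70 TPM in HFD 1 and HFD 2, against 12.2 and 14.9 TPM in control 1 and control 2, and the diets overlapped (log2 −0.20, SE 0.32, limma adjusted p = 0.859). It was found in 65.9% and 65.2% of HFD cells, against 78.5% and 71.4% of control cells, a difference of −9.39 percentage points with a pooled SD of 3.55 (exact permutation p = 0.333, the smallest possible). Its exons overlap Nr2c2ap on the opposite strand, a gene at 37.4 and 37.9 TPM in the HFD sets and 31.3 and 24.96 TPM in the control sets, so part of either signal may belong to the other.

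All 3 RFX transcripts were found together in 9 of 91 cells of HFD 1 and 2 of 92 of HFD 2, against 6 of 93 of control 1 and 2 of 91 of control 2. These are 9.89% and 2.17% of HFD cells, against 6.45% and 2.20% of control cells, so the second set of each diet had fewer.

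Among the NF-Y subunits, Nfyb gave non-overlapping set means and the other two did not. Nfya, which makes the base contacts with CCAAT, averaged 8.26 and 4.75 TPM in HFD 1 and HFD 2, against 5.88 and 2.63 TPM in control 1 and control 2 (log2 0.55, SE 0.42, limma adjusted p = 0.656). In each diet the first set was the higher, and the diets overlapped. It was found in 48.4% and 30.4% of HFD cells, against 32.3% and 29.7% of control cells.

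Nfyb, which forms a histone-fold dimer with Nfyc, averaged 26.3 and 21.3 TPM in HFD 1 and HFD 2, against 13.6 and 16.5 TPM in control 1 and control 2. Both HFD sets were higher than both control sets (log2 0.63, SE 0.29, limma p = 0.0393, adjusted p = 0.430), and the difference stayed between 0.45 and 0.77 over 15 alternative settings. The share of cells was 68.1% and 59.8% in HFD, against 58.1% and 50.5% in control.

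Nfyc, the partner of Nfyb in that dimer, had the highest level of the complex, with 88.8 and 63.9 TPM in HFD 1 and HFD 2, against 104 and 68.2 TPM in control 1 and control 2. The first set of each diet was again the higher, and the diets overlapped (log2 −0.16, SE 0.26, limma adjusted p = 0.866). All 3 NF-Y transcripts were found in 31.9% and 20.7% of HFD cells, against 22.6% and 17.6% of control cells.

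Creb1, the leucine-zipper factor of the CREB element, averaged 5.70 and 10.9 TPM in HFD 1 and HFD 2, against 6.88 and 4.10 TPM in control 1 and control 2, and the diets overlapped (log2 0.49, SE 0.39, limma adjusted p = 0.671). Its share of cells was 73.6% and 66.3% in HFD, against 65.6% and 42.9% in control, where control 2 stood apart from the other 3 sets.

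Ordered by mean TPM over the 4 sets, Nfyc (81.3) stood above Nfyb (19.4), and Nfyb above Rfxank (12.6), in 4 of 4 sets and by more than the spread between sets. Rfxank stood above Ciita (8.66) in 3 of 4 sets, with a log2 gap of 0.59 against a pooled SD of 0.48; the mean for Ciita spans diets with different levels. The steps further down, through Creb1 (6.89), Nfya (5.38), Rfx5 (4.73) and Rfxap (4.01), were each within the spread. A cell held on average 4.15 and 3.42 of the 7 subunit transcripts in HFD 1 and HFD 2, against 3.75 and 3.16 in control 1 and control 2. The difference of 0.33 was within the pooled SD of 0.47 (exact permutation p = 0.667), and without HFD 1 it was −0.035. At this sensitivity only 1, 1, 1 and 0 cells of HFD 1, HFD 2, control 1 and control 2 showed all 7.

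Within a set, Ciita was the member whose level went with class II transcripts. The class II score was the mean log2(TPM + 1) of Cd74, the invariant chain, of H2-Aa, H2-Ab1 and H2-Eb1, chains of the peptide-presenting dimers, and of H2-DMa and H2-DMb1, which load peptide. Spearman's rho between Ciita and this score over the cells of a set was 0.293 in HFD 1 and 0.324 in HFD 2, against 0.199 in control 1 and 0.3003 in control 2. The mean was 0.279 (SD 0.0551, n = 4 sets), and 0.280 given the number of genes detected in the cell. The cells of a set share chemistry and handling, and these rho values are descriptions with no test.

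By the mean over sets, Ciita ranked 10 among 10306 genes detected in at least 10% of the cells of every set, the 6 score genes left out, with a median of −0.0140 over all. Of the 8 members, 0 reached 0.2 in all 4 sets, since Ciita itself reached it in 3. Its lowest value was above 0.2 with Pearson's r of log2(TPM + 1) (0.204) and without Paneth-marker cells (0.2015). It stayed below 0.2 given gene number (0.191), with Cd74 left out of the score (0.190) and in the middle range of gene numbers (0.177). Without cells holding the leukocyte marker Ptprc it was 0.199. Genes that reached 0.2 in all 4 sets were 6 in number (0.0582%): 2210407C18Rik, Ceacam10, Psmb9, AW112010, Cd177 and H2-T23. The 9 genes ranked above Ciita included 5 genes of class I antigen presentation, the immunoproteasome subunits Psmb8 (0.367) and Psmb9 (0.302), the peptide transporter subunit Tap1 (0.282), and the heavy chains H2-D1 (0.317) and H2-K1 (0.310).

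Over all cells kept, the 7 enhanceosome genes had mean rho values between −0.0801 for Nfyb and 0.0174 for Creb1, and none reached 0.2 in any set. Creb1 gave −0.155 and 0.173 in HFD 1 and HFD 2, and 0.0876 and −0.0367 in control 1 and control 2, with no common sign. Rfxank gave −0.224 and −0.0898 in HFD 1 and HFD 2, and 0.0695 and −0.0433 in control 1 and control 2. Their ranks among the 10306 genes lay between 2940 for Creb1 and 9102 for Nfyb.

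**Figure D3:**
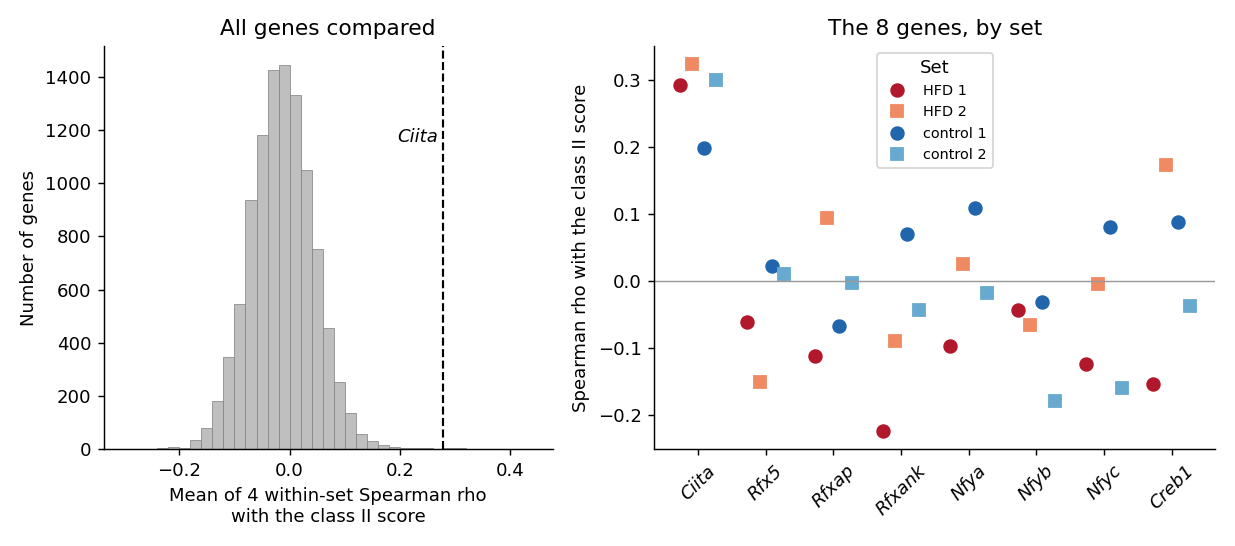
Left, number of genes by their mean within-set Spearman rho with the class II score, with Ciita as a dashed line at 0.279. Right, rho of each of the 8 genes in HFD 1, HFD 2, control 1 and control 2; the Ciita points lie between 0.199 and 0.324 and those of the other 7 genes scatter around 0.

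The class II score was higher in cells with Ciita than in the other cells of every set, and the gap between the diets was present in both kinds of cell. In cells with Ciita the score was 3.93 and 3.96 in HFD 1 and HFD 2, against 5.60 and 5.97 in control 1 and control 2. In cells without it the score was 1.62 and 1.93 in HFD 1 and HFD 2, against 4.89 and 4.41 in control 1 and control 2. HFD cells in which Ciita was found had a lower mean score than control cells in which it was not. The difference between the diets was −1.84 in cells with Ciita (pooled SD 0.18), −2.87 in cells without (pooled SD 0.29) and −2.93 in all cells (pooled SD 0.27).

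Within a set, cells with Ciita exceeded those without by 2.31 and 2.03 in HFD 1 and HFD 2, and by 0.71 and 1.56 in control 1 and control 2, a mean of 1.65 (SD 0.70, n = 4 sets). The cells were split by a measured transcript, so this is a description with no test. Gene numbers moved little with the split: medians were 6609.5 with and 6884 without Ciita in HFD 1, 6721 and 6264 in HFD 2, 6923 and 6843.5 in control 1, and 6072 and 6158.5 in control 2. No cell with Ciita held 2 or more of the 4 leukocyte markers or of the 4 B cell markers in any set, and cells with 2 or more of 6 myeloid or dendritic markers numbered 1 of 45 in control 1 and 2 of 29 in control 2. The summed TPM of those 6 markers was higher in cells with Ciita than in cells without it in every set: 4.43 and 1.21 in HFD 1, 2.91 and 1.94 in HFD 2, 3.74 and 2.69 in control 1, and 4.07 and 1.83 in control 2. At least 1 of the 6 was found in 3 of 12 cells with Ciita and 7 of 79 without in HFD 1. The counts were 4 of 19 and 14 of 73 in HFD 2. They were 13 of 45 and 11 of 48 in control 1, and 5 of 29 and 12 of 62 in control 2. The 4 leukocyte markers summed to 0 TPM with Ciita and 0.520 without in HFD 1, and 0.303 and 0.944 in HFD 2. They summed to 0.628 and 0.563 in control 1, and 0.257 and 0.365 in control 2. The part of these markers in the difference in score was not tested. In HFD 1, 1 of the 12 cells with Ciita held a B cell marker, against 0 of the 79 without. Splitting by the other members gave mean differences between −0.51 for Nfyc and 0.15 for Creb1, which differed in sign between sets. Nfyc gave −1.74 and −0.67 in HFD 1 and HFD 2, and 1.03 and −0.66 in control 1 and control 2. Creb1 gave −0.91 and 0.94 in HFD 1 and HFD 2, and 0.67 and −0.093 in control 1 and control 2. In control 1 the Nfyc value was above that of Ciita (0.71).

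**Figure D4:**
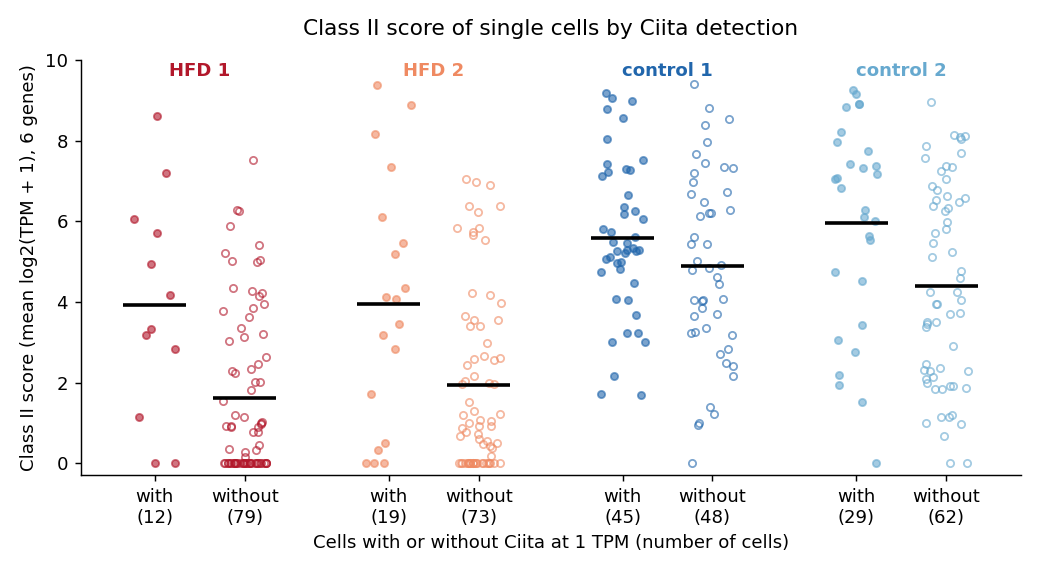
Class II score, the mean log2(TPM + 1) of 6 genes, of each cell with Ciita at 1 TPM or more (filled) and without (open) in HFD 1, HFD 2, control 1 and control 2; black bars are means and numbers of cells are in brackets. Cells with Ciita average 3.93 and 3.96 in the HFD sets and 5.60 and 5.97 in the control sets, above the cells without it in each set.

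Taken by transcript, Cd74 was found in 75% of cells with Ciita and 46.8% of cells without in HFD 1, and in 84.2% and 47.9% in HFD 2. In control 1 the shares were 100% with and 95.8% without, and in control 2 89.7% with and 90.3% without, so at least 89.7% of control cells held Cd74 whether Ciita was found or not. H2-Aa, with fewer cells, kept a difference in every set: 41.7% with and 11.4% without in HFD 1, 42.1% and 23.3% in HFD 2, 66.7% and 54.2% in control 1, and 75.9% and 50% in control 2.

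Cells with all 6 class II transcripts numbered 3 and 4 in HFD 1 and HFD 2, against 31 and 24 in control 1 and control 2, and Ciita was found in 2 and 4 of them in HFD, against 16 and 12 in control. Cells with none of the 6 numbered 36 and 26 in HFD 1 and HFD 2, against 1 and 3 in control 1 and control 2. Of these, Ciita was found in 2 and 3 in HFD, against 0 and 1 in control.

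The genes whose levels were most like that of Ciita included 5 genes of antigen presentation. Among 8979 genes found in at least 20% of the cells of every set, the 10 with the highest mean rho with Ciita were H2-DMa (0.261), Cd74 (0.254), Ifi47 (0.245), H2-Ab1 (0.242), Slc3a1 (0.226), H2-Eb1 (0.219), Psmb8 (0.216), Mfsd5 (0.214), Tbrg3 (0.202) and Vwa5a (0.190). H2-Aa and H2-DMb1, found in 14 and 11 of 91 cells of HFD 1, were below the limit of 20% and could not enter. Their mean rho with Ciita was 0.230 and 0.196. Ifi47, an interferon-inducible GTPase, gave 0.331 and 0.270 in HFD 1 and HFD 2, and 0.231 and 0.148 in control 1 and control 2. Slc3a1, a subunit of an amino acid transporter, rested largely on HFD 2, with 0.438, against 0.0810 in HFD 1, 0.220 in control 1 and 0.166 in control 2. H2-DMa gave 0.404 and 0.234 in HFD 1 and HFD 2, and 0.0934 and 0.313 in control 1 and control 2. Exons of H2-DMa overlap Brd2 on the opposite strand.

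Among the lists of genes that act with or on Ciita, calls in this fit were in the class II targets and 0 in the other lists. Of 10 class II genes 6 were tested and all 6 were called lower in HFD, as were 0.137% of all genes. The 6 were H2-Aa (log2 −2.06, with 28.2 and 74.6 TPM in HFD 1 and HFD 2, against 176 and 214 TPM in control 1 and control 2), H2-Ab1 (−1.57), H2-DMb1 (−1.55), H2-Eb1 (−1.49), Cd74 (−1.38) and H2-DMa (−1.31), with limma adjusted p between 0.000704 and 0.0104. The median was −1.52, beside 0.13 for all genes. H2-Eb2, H2-DMb2, H2-Oa and H2-Ob were below the filter of a mean of 1 TPM; they have close relatives among the tested genes, between which reads can be split. With genes at any level tested, or with Rn45s left out, 0 of the 6 passed (lowest limma adjusted p = 0.450 and 0.0612), although their log2 differences lay between −2.06 and −1.31 and between −2.22 and −1.49. With no filter on cells or with limma without a trend, 0 of the 6 passed as well (lowest limma adjusted p = 0.0705 and 0.203), and without HFD 1, 1 of the 6 passed.

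The interferon gamma route that induces Ciita had 10 of 11 genes tested and 0 called, with a median of 0.063. Over all genes 0.506% were called and the median was 0.13. A count of 0 in this list, or in those that follow, is therefore near the background and does not show that its genes were unchanged. Irf1, the factor that acts on the interferon-responsive promoter of Ciita, averaged 97.9 and 98.1 TPM in HFD 1 and HFD 2, against 86.0 and 112.7 TPM in control 1 and control 2, with the HFD sets between the control sets. The 4 with the smallest limma p were Ifngr1 (log2 0.34), Socs3 (−0.54), Usf2 (0.34) and Jak2 (−0.42), with adjusted p of at least 0.648.

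Of 13 coactivators that bind Ciita, 13 were tested and 0 called, with a median of 0.22. The acetyltransferase gene Crebbp averaged 17.6 and 13.99 TPM in HFD 1 and HFD 2, against 29.7 and 22.1 TPM in control 1 and control 2 (log2 −0.68, SE 0.29, limma p = 0.0278, adjusted p = 0.394). Psmc5, a proteasome ATPase, averaged 147 and 201 TPM in HFD, against 110.6 and 117 TPM in control (log2 0.59, SE 0.25, limma p = 0.0274, adjusted p = 0.394). Set means did not overlap between the diets for 7 of the 13, these genes among them, where 41.8% of all genes showed no overlap. Ncoa3 (log2 −0.71) and Cdk9 (0.64) followed, with limma adjusted p of 0.487 and 0.539.

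Silencers of Ciita had 5 of 6 genes tested and 0 called, with a median of 0.52, beside 0.13 for all genes. The sixth, Prdm1, was below the filter and lower in HFD. It averaged 0.0085 and 0.056 TPM in HFD 1 and HFD 2, against 1.13 and 0.128 TPM in control 1 and control 2. The deacetylase gene Hdac1 averaged 110.8 and 120.2 TPM in HFD 1 and HFD 2, against 65.5 and 90.5 TPM in control 1 and control 2 (log2 0.58, SE 0.25, limma p = 0.0301, adjusted p = 0.400). Ezh2, which methylates histone H3 on a lysine linked to silencing, averaged 27.8 and 34.9 TPM in HFD, against 19.4 and 21.5 TPM in control (log2 0.58, SE 0.27, limma p = 0.0418, adjusted p = 0.433). Hdac2 (0.52) and Dnmt1 (0.11) had limma adjusted p of 0.483 and 0.909. Set means did not overlap for 3 of the 5, Hdac1, Ezh2 and Hdac2, higher in HFD, where 41.8% of all genes showed no overlap. The proliferation score was also higher in both HFD sets, whose part in this was not tested.

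RFX, CREB and NLR relatives had 13 of 18 genes tested and 0 called, with a median of −0.00047. The smallest limma p values were those of Creb3l3 (log2 0.60), Nod2 (−0.89), Rfx2 (0.91) and Creb3 (0.43), with adjusted p of at least 0.466. The class I list, genes known as further targets of these factors, had 5 of 6 tested and 0 called, with a median of −0.022: Tap1 (log2 −0.47), B2m (0.41), H2-D1 (0.092) and H2-K1 (−0.061) led them, with limma adjusted p of at least 0.555. Nlrc5, the transactivator of class I genes and a relative of Ciita, was below the filter, at 0.260 and 0.366 TPM in HFD 1 and HFD 2, against 0.854 and 1.99 TPM in control 1 and control 2.

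Reading across from the promoters, 18 of the 37 genes with an X box core followed by a Y box were tested. Their median log2 difference was 0.060, beside 0.13 for all genes. Of these 18, 2 genes were called lower in HFD than in control, H2-Eb1 and H2-DMb1, as were 0.137% of all genes. Neither call held in the 4 settings, named above, in which 0 of the 6 class II genes passed. H2-D1, with the same pair of elements, differed by 0.092 (limma adjusted p = 0.930), while H2-Q6 (−1.44) and H2-Q7 (−0.996) had limma adjusted p of 0.164 and 0.262. The H2-Q genes resemble each other closely, so reads can be split between them.

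Among the NF-Y subunits, Nfyb had the highest mean rho over the 4 sets with proliferation transcripts, but not the highest in every set. Over the cells of a set, rho between Nfyb and the mean log2(TPM + 1) of 6 proliferation markers was 0.329 and 0.325 in HFD 1 and HFD 2, against 0.2001 and 0.437 in control 1 and control 2. Nfya was above Nfyb in HFD 2 (0.337) and control 1 (0.283), and Nfyc was above Nfyb in control 1 (0.238). Nfyb was the 1 member that reached 0.2 in all 4 sets, as did 6.70% of 10306 genes, so the value is shared by many genes; the median over all genes was 0.0854. Given gene number its mean rho was 0.245, with −0.0186 in control 1, and 1.84% of genes reached 0.2 in all 4 sets on that measure. Nfya (mean 0.236) and Nfyc (0.180) reached 0.2 in 3 and 2 sets, and were at 0.0626 and 0.0823 given gene number. Ciita was at −0.0403. Of 8 cell cycle genes known as NF-Y targets, 8 were tested and 0 called between the diets, with a median of 0.18; Cdc25c (log2 0.50), Aurka (0.41), Cdk1 (0.31) and Ccnb1 (0.22) had limma adjusted p of at least 0.569.

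**Figure D5:**
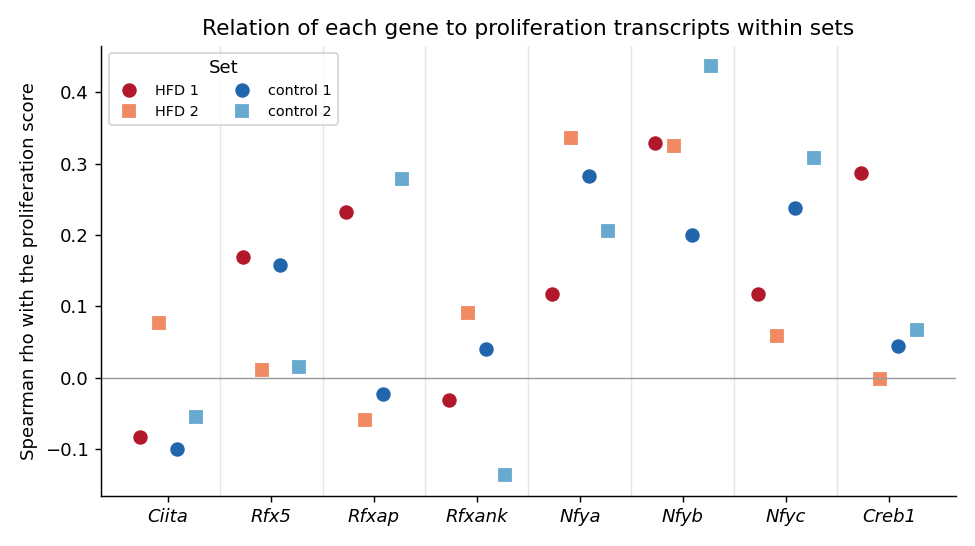
Spearman rho of each of the 8 genes with the proliferation score, the mean log2(TPM + 1) of 6 markers, over the cells of HFD 1, HFD 2, control 1 and control 2. Nfyb lies between 0.2001 and 0.437 in the 4 sets, and Ciita between −0.100 and 0.0770.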

How the data were processed

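The authors deposited transcripts per 1000000 (TPM) for 23420 genes in 375 cells; per the submitters' processing notes, Bowtie2 and RSEM were used with the mouse build mm10. Versions, annotation and depth are not stated there, and each cell summed to between 999999.2 and 1000000.6 TPM. The members and gene lists were chosen with earlier results of these data known.

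Sets were the units of replication, 2 per diet. Set means of cells with at least 2000 genes above 0 were tested as log2(TPM + 1) with limma 3.58.1 (R 4.3.3), two-sided, over all genes whose mean reached 1 TPM, at a Benjamini-Hochberg threshold of 0.05, after a check on simulated set values. Shares of cells at 1 TPM or more were tested with limma on the arcsine square root for genes with a mean share of at least 5%. Spearman's rho was computed within sets for genes found in at least 10% of the cells of every set, with numpy 2.4.6 and scipy 1.17.1. Differences of shares and scores were set against the SD between sets, pooled over the diets, and an exact permutation of the sets.

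The text names all 8 members, all tested class II genes, up to 4 genes of each other list with the smallest p, and the 10 genes most like Ciita. Irf1, Nlrc5, Prdm1, the overlapping neighbours, the class I genes above Ciita in rank and the genes with paired promoter boxes were added after their values were seen. Coordinates come from GENCODE M21 on GRCm38. Alternatives were other pseudocounts, filters, scalings, cell selections, detection limits, a block for set number and each set left out.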

Additional observations from a re-analysis of the deposited data

How the results depend on the processing

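Over 300 alternative values, 279 were classed as the same, 13 changed sign and 8 moved. For tests, the same meant an unchanged direction and side of the threshold. For rho values, scores and subunits per cell it meant a shift within the SD between sets, and for counts a change within a fixed ratio. None of the 8 members passed under any alternative fit of levels or shares: the Ciita level lay between −1.33 and −0.65 (log2, limma adjusted p from 0.0726 to 0.923) and the Ciita share between −31.5 and −14.9 percentage points. The number of class II genes called lower was 0 when genes of any level were tested and 0 when Rn45s was removed, against 6, also 0 with no filter on cells and 0 with limma without a trend (both chosen after seeing the data), and between 1 and 6 when a set was left out; the cause was not tested. With set number as a replicate block, the Ciita level was −0.99 (limma adjusted p = 0.0726), 6 class II genes passed and 2 genes of the other lists, Psmc5 and Hdac1, passed; sets of the same number had deviations correlated at 0.233 over genes, and the labels do not state a pairing. The block left the difference in subunits per cell at 0.33. Leaving out a set moved that difference over −0.0349 to 0.695, and let Crem pass without HFD 2 (1 gene). The mean rho of Ciita with the class II score was 0.339 in cells of the middle range of gene numbers. Signs changed for Rfx5 levels, at −0.072 with Rn45s removed, −0.014 with median-ratio scaling and −0.12 without control 1 (range over sets left out −0.12 to 0.32). They changed for Rfxank levels without HFD 2 (range −0.44 to 0.028) and for Nfyc levels without HFD 2 (0.073) and without control 1 (range −0.46 to 0.14). Among shares, in percentage points, they changed for Rfx5 (3.86 at 5 TPM, and 1.45 without control 2, range −4.52 to 1.45), for Rfxap (range −5.37 to 21.2), Nfya (−0.529 to 17.4) and Nfyc (−2.65) without HFD 1, and for Nfyc without control 2 (range −3.99 to 8.36). Without 1 set, the lone set of a diet is assumed to vary like the others. Unknown depth limits what a cell without Ciita shows.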
